A study of Rattus norvegicus with 12 samples.

Results

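Chemokines and interleukins are secreted signals that guide and instruct white blood cells, and their receptors receive those signals. Genes of these families were measured in the dorsal root ganglia, where the somata of sensory neurons lie next to the cord, of rats with an injured or an intact spinal nerve. A gene was taken when its annotated symbol was Ccl, Cxcl, Ccr, Cxcr, Cx3cl, Cx3cr, Xcl or Xcr followed by a number, or Il followed by a number, with or without trailing letters. This gave 76 of the 10411 genes on the array: 11 CC chemokine ligands, 12 other chemokine ligands, 10 chemokine receptors, 21 interleukins, 20 interleukin receptor chains, and the soluble proteins Il1rn and Il18bp. The choice used no measured value except that 1 probe set, the one with the highest mean over the 12 arrays, stood for each gene. A probe set is a group of short probes that read 1 transcript, and 11 of the 76 genes had more than 1.

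The animals were adult male Sprague Dawley rats of 2 genetic sub-lines that the labels call Low Pain (LP) and High Pain (HP), with no age in weeks given. Ganglia of the L4 and L5 levels came from LP rats 3 days after ligation of the L4 and L5 spinal nerves (LP SNL), LP rats after a sham operation that spared the nerve (LP sham), HP rats 3 days after the same ligation (HP SNL), and HP rats after sham surgery (HP sham). Each group had 3 arrays. The labels do not say whether an array held the RNA of 1 animal or of several, nor when the sham ganglia were taken, so the p-values measure the spread between these 12 samples only.

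Chemokines act through G protein-coupled receptors on the surface of the cells they attract, and families are named after the spacing of conserved cysteines (CC, CXC, CX3C and XC). Interleukins act through paired receptor chains, many of which are shared between several ligands and signal through JAK kinases and STAT factors, while receptors of the interleukin-1 and interleukin-17 families signal towards NF-kappa B. After nerve injury, neurons, satellite glia, Schwann cells and macrophages of the ganglion are all known sources of such signals, and several of them act on nociceptors, the neurons that report painful stimuli.

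Signals are on the linear scale of the deposited table, in arbitrary array units. Array medians were between 278.4 and 313.2. Signals of different probe sets also depend on their probes, so signals of different genes are not compared as RNA levels. Brightness was used to judge precision and to pick 1 further gene of each role to name. Of the 76 genes, 68 had a mean below that of the median gene, and the floor of an array, the value that its dimmest 5% of probe sets did not exceed, lay between 12.4 and 20.8. Ccl28, a mucosal CC chemokine, did not exceed 20.8 on any array. The spread among the 3 arrays of a group was larger for dim genes, with a median SD of 0.52 on the log2 scale in the dimmer 38 genes and 0.24 in the brighter 38. Differences between groups are therefore given as log2 of the signal plus 1, with the standard error (SE) of a limma fit over all 10411 genes and 12 arrays. A gene is said to have risen or fallen only where its p-value, adjusted over all genes by the Benjamini-Hochberg method, was under 0.05. Means of signals are given ± SD over the 3 arrays of a group.

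The ganglion holds many cell types, and in bulk tissue more cells of a type and more RNA per cell cannot be told apart. Of 8 measured sensory neuron markers none was at 0 on any array, and their summed signal was 22607 to 25772 in LP SNL, 32984 to 36728 in LP sham, 26859 to 29259 in HP SNL and 34333 to 36197 in HP sham. Of 13 measured macrophage and monocyte markers, 9 rose after ligation in LP and 9 in HP. Their summed signal was 14520 to 17054 in LP SNL against 6864 to 7899 in LP sham, and 17311 to 20277 in HP SNL against 8749 to 9965 in HP sham, and no marker was at 0. T and NK cell markers summed to 2092 to 2490 in LP SNL against 1739 to 1921 in LP sham, and to 2067 to 2119 in HP SNL against 1660.3 to 1957 in HP sham. Of those 12 measured markers, 1 rose in each line (8.33%, beside 14.5% of all genes called in LP and 13.6% in HP), the cytotoxic granule gene Gzmb. Gzmb averaged 270 in LP SNL against 86.1 in LP sham, and 310 in HP SNL against 92.7 in HP sham. Over the 12 markers 7 differences lay above 0 in each line, and the median log2 difference was 0.13 in LP and 0.02 in HP. Of 10 listed neutrophil markers 3 were measured (S100a8, S100a9 and Mmp8) and none passed in either line. Endothelial markers (4 measured) summed to 1361 to 1524 in LP SNL against 907 to 1127 in LP sham, and to 1324 to 1369 in HP SNL against 832 to 938 in HP sham, with no overlap in either line. Markers of satellite glia and Schwann cells (8 measured) summed to 31909 to 33189 in LP SNL against 30903 to 36096 in LP sham, and to 36399 to 37430 in HP SNL against 29167 to 32682 in HP sham, apart in HP alone. Of these 8, Gfap, Glul and Sox10 rose in both lines and none fell in either line. These 3 are 37.5% in each line, beside 14.5% of all genes called in LP and 13.6% in HP. In the average over both lines 3 rose and 1 fell (50%, beside 24.8% of all genes). Differences lay above 0 for 3 of the 8 in LP and for 7 in HP. Fabp7 differed by -0.60 ± 0.19 in LP (adjusted p = 0.06) and -0.55 ± 0.19 in HP (adjusted p = 0.0853). Gfap rose by 1.54 ± 0.09 in LP and 1.67 ± 0.09 in HP. Muscle markers (5 measured) summed to 2664 to 2923 in LP SNL against 2725 to 3089 in LP sham, and to 2546 to 2702 in HP SNL against 3268 to 3670.2 in HP sham, lower in HP without overlap. Sums of 8 mast cell markers and of the 1 measured B cell marker overlapped between SNL and sham in both lines. The ratio of the 3' to the 5' probe set of beta-actin, which reads RNA integrity, was 1.113 to 1.125 in LP SNL against 0.993 to 1.877 in LP sham, and 1.118 to 1.342 in HP SNL against 1.483 to 1.847 in HP sham. It was lower on all HP SNL arrays than on all HP sham arrays, and the LP groups overlapped. The part of cell numbers in the results on single genes was not tested. For RNA integrity, the beta-actin ratio was entered as a covariate in 1 of the alternative fits. Because the ratio did not overlap between HP SNL and HP sham, that fit cannot tell RNA integrity from ligation in HP.

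**Figure D1:**
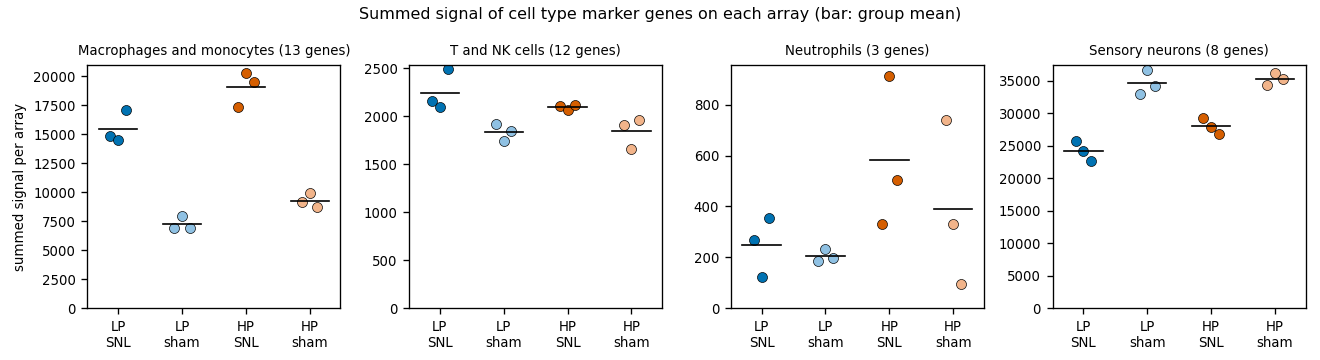
Summed signal of marker genes on each of the 12 arrays (linear y axis from 0, in array units), for macrophages and monocytes, T and NK cells, neutrophils and sensory neurons, with 1 point an array and a bar at each group mean. Macrophage sums lay at 14520 or above on all SNL arrays and at 9965 or below on all sham arrays in both lines, and sensory neuron sums lay lower after SNL than after sham.

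Few of the chemokine and interleukin genes passed the threshold, in shares no larger than those of all genes, and nearly all that passed rose. In LP rats 7 of the 76 rose after ligation and 1 fell, against sham. That is 10.5% of them, while 14.5% of all genes passed in the same comparison, 7.66% higher and 6.79% lower. In HP rats 9 rose and 1 fell, which is 13.2%, beside 13.6% of all genes, 7.02% higher and 6.59% lower. The shares called in either direction were thus no larger than those of all genes, and the calls were less evenly split between the directions. Averaged over both lines, 14 rose and 1 fell (19.7%, beside 24.8% of all genes, 13% higher and 11.8% lower). Over all 76 the median log2 difference was 0.19 in LP and 0.14 in HP, beside 0.02 and -0.00 over all genes.

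The genes called in both lines were Ccl2, Ccl6, Cxcl14, Il17ra, Il24 and Il33, which rose, and Il7r, which fell. These 7 genes make up 87.5% of the 8 calls in LP and 70% of the 10 calls in HP. Cxcl16 rose past the threshold in LP and, with the settings used here, not in HP, where several other settings called it, and Cx3cr1, Il6 and Il6st rose past it in HP and not in LP. For none of these 4 did the test of the difference between the lines pass. Ccr2, Cxcl10, Il2rg and Il6r passed only in the average over both lines. The other 61 genes passed in no comparison.

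**Figure D2:**
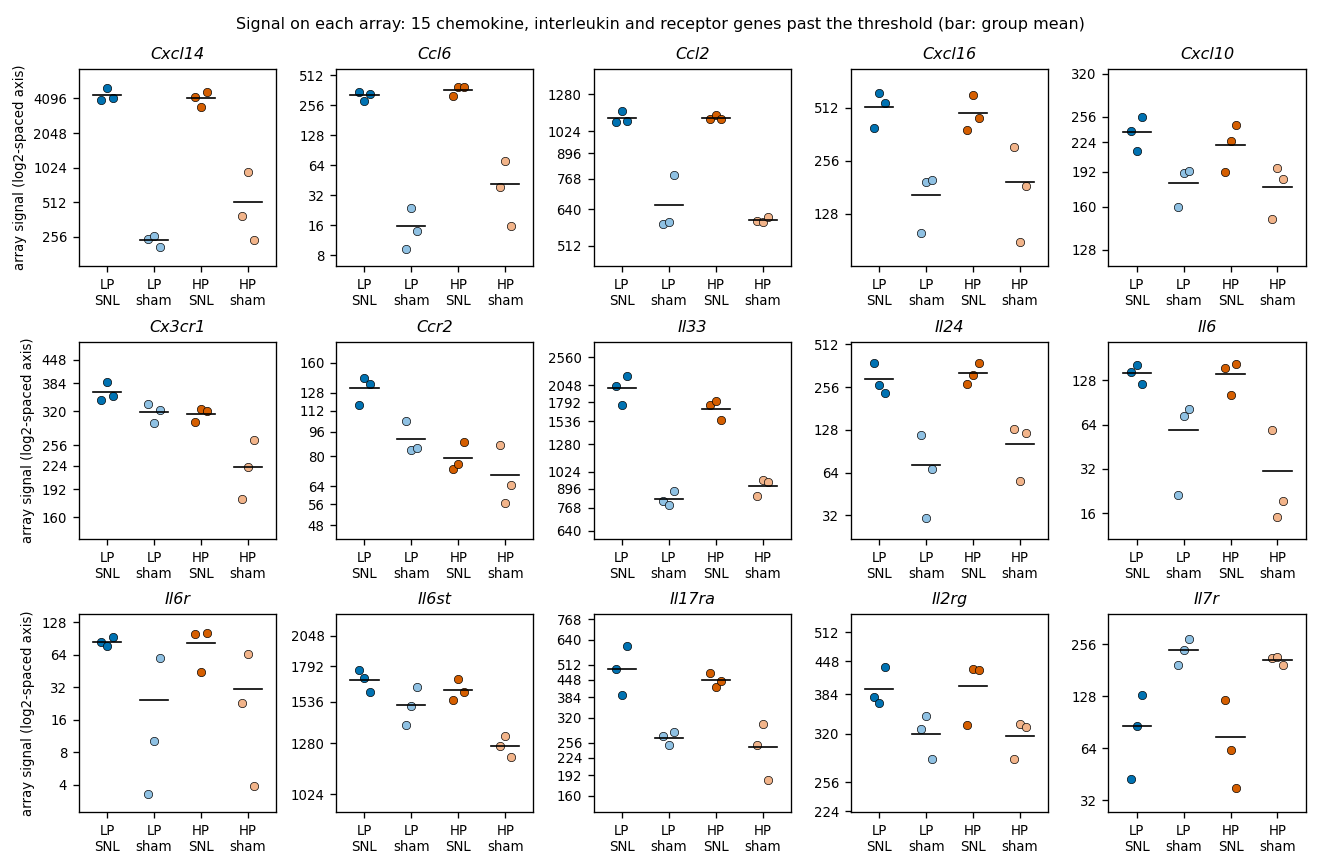
Signal on each array for the 15 genes past the threshold in at least 1 ligation comparison, in LP SNL, LP sham, HP SNL and HP sham rats (y axis in array units, log2-spaced and with its own range in each panel; points are arrays, bars are group means). Cxcl14, Ccl6, Ccl2, Il33, Il24 and Il17ra lay higher on all 3 SNL arrays than on all 3 sham arrays of the same line, and Il7r lay lower.

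Promoter sequences are shown for 5 of the called genes, to set the response beside the DNA in front of each gene. Cxcl14, Ccl6, Il33 and Il24 were called in both lines, and Il6 was added for the motifs in its window, so the choice was made with values and matches known. Each window is the 250 bases before and 50 bases after a transcript start in RefSeq (rat assembly GRCr8), 5′ to 3′ on the strand of the gene. For Il33 that start lies 95 bases inside the annotated gene, and for the other 4 genes shown it is the first base of the gene. The RefSeq table held 58 of the 76 genes and 13 of the 15 called ones. Letters in capitals mark matches to a motif.
Cxcl14, chr17:8322900-8323199, plus strand: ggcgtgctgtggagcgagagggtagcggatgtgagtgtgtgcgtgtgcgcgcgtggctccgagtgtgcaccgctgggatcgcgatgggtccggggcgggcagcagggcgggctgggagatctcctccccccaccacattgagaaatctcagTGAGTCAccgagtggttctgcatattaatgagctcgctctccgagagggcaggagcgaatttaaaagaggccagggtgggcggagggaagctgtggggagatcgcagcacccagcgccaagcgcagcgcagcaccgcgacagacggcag
Ccl6, chr10:68883317-68883616, minus strand: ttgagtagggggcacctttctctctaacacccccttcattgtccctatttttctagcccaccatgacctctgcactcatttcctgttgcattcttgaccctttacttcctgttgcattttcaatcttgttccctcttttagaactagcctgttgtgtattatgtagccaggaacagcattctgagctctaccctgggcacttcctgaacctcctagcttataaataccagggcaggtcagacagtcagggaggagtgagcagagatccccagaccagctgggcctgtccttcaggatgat
Il33, chr1:237115323-237115622, plus strand: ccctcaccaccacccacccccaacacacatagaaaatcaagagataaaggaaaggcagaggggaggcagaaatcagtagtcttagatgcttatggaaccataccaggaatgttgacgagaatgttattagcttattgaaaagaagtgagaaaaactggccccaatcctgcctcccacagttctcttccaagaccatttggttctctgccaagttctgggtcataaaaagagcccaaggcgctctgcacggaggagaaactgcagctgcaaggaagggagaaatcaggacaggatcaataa
Il24, chr13:44910711-44911010, minus strand: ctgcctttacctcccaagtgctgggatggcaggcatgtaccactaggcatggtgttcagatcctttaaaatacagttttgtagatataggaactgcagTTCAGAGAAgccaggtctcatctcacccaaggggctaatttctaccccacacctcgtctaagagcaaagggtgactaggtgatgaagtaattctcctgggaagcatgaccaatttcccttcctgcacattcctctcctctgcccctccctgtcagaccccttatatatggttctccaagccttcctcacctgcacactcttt
Il6, chr4:5894526-5894825, minus strand: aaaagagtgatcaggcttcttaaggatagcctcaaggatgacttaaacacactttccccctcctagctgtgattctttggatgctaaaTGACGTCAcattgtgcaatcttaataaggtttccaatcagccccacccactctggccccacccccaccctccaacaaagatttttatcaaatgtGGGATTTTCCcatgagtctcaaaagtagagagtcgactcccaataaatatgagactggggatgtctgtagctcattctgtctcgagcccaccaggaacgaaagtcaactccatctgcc
For this, 4 motifs were searched on both strands. Of the 13 called windows 4 held a match, those of Cxcl10, Cxcl14, Il24 and Il6, and 9 held none, and no match in these windows overlapped another. Among those 9, the start lies 11360 bases inside the annotated gene for Il6st, 1982 for Cx3cr1, 1496 for Il6r and 320 for Ccr2. The windows of these genes therefore lie within the gene, and the DNA in front of it was not searched. The AP-1 motif TGANTCA, bound by Fos and Jun proteins, stood in the Cxcl14 window at positions -99 to -93 from the start. It was found in 7.33% of all 27457 promoters and in 13.8% (8) of the 58 promoters of this family. The cyclic AMP response motif TGACGTCA, in 1.91% of all promoters, stood in the Il6 window at -162 to -155, the 1 match among the 58. The Il6 window also held the kappa B motif, bound by NF-kappa B and searched as GGGA, any base and TTTCC, at -68 to -59. That motif was in 0.371% of all promoters and in 6.9% (4) of the 58, namely those of Il6, Cxcl1, Cxcl6 and Ccr3. The STAT motif TTCNNNGAA stood in the Il24 window at -152 to -144 and was found in 8.68% of all promoters and in 5.17% (3) of the 58. Neither the Ccl6 nor the Il33 window held any of these letters. A match is a description of the letters and not of a bound site.

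Cxcl14 and Ccl6 gave the largest differences of the family. Of the 11 CC ligands 2 rose in each line (18.2%), and of the 12 other ligands 2 rose in LP (16.7%) and 1 in HP (8.33%), beside 14.5% of all genes called in LP and 13.6% in HP. Cxcl14, a CXC chemokine that attracts monocytes and dendritic cells, has the first promoter window shown above. Its signal was 3994, 5063 and 4103 on the LP SNL arrays against 246, 259.8 and 207 on the LP sham arrays. In HP it was 4194, 3442 and 4659.5 after SNL against 387, 931 and 238 after sham. The lowest SNL array exceeded the highest sham array several-fold in both lines, and HP sham replicate 2 was the highest of the sham arrays. Cxcl14 rose by 4.20 ± 0.39 on the log2 scale in LP (18.4-fold, adjusted p = 0.000156) and by 3.20 ± 0.39 in HP (9.2-fold, adjusted p = 0.000756).

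Ccl6 is a rodent CC chemokine made by macrophages and other myeloid cells. It read 345, 284 and 334 in LP SNL and 9.3, 23.8 and 13.9 in LP sham. In HP it read 316, 393 and 386 after SNL and 38.5, 71.2 and 15.7 after sham. On 2 of the 3 LP sham arrays and 1 of the 3 HP sham arrays Ccl6 read below the floor of that array, and no SNL array came near it. The rise was 4.36 ± 0.46 in LP (20.5-fold, adjusted p = 0.000264) and 3.33 ± 0.46 in HP (10.1-fold, adjusted p = 0.00146). With the sham values below the floor raised to it, the ratio was 16.7-fold in LP and 9.96-fold in HP, so the fitted folds are no exact size. Ccl6 lies on chromosome 10 of GRCr8 directly beside Ccl3 and 1 protein-coding gene away from Ccl5, both genes for ligands of inflammatory CC receptors. Neither neighbour passed: Ccl3 differed by -0.07 ± 0.77 in LP and -0.57 ± 0.77 in HP, and Ccl5 by 0.23 ± 0.36 and -0.19 ± 0.36.

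Ccl2, also called MCP-1, recruits monocytes through the receptor Ccr2 and is made by injured sensory neurons. Its signal was 1080.3, 1155 and 1091 in LP SNL against 585, 592 and 784 in LP sham. The HP SNL arrays read 1099.6, 1128 and 1105 against 597, 590.2 and 612 on the HP sham arrays. These 6 SNL values lay close together, and the groups did not overlap in either line. Ccl2 rose by 0.77 ± 0.11 in LP (1.71-fold, adjusted p = 0.0016) and 0.89 ± 0.11 in HP (1.85-fold, adjusted p = 0.000903). Its nearest measured neighbour of the family, the eosinophil attractant Ccl11, is 1 protein-coding gene away and differed by 0.36 ± 0.34 in LP and 0.27 ± 0.34 in HP, neither past the threshold. The calls of Cxcl14, Ccl6 and Ccl2 held under every other setting and without any 1 array.

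Cxcl16 is a membrane-bound chemokine that also acts as a scavenger receptor of phagocytes. It measured 394, 621 and 547 in LP SNL against 99.9, 193 and 199 in LP sham. The HP arrays gave 382, 609 and 446 after SNL and 309, 88.3 and 185 after sham. SNL and sham arrays did not overlap in either line, but HP sham replicate 1 came close to the lowest HP SNL array. Cxcl16 rose by 1.70 ± 0.43 in LP (adjusted p = 0.0247), and its difference in HP was 1.45 ± 0.43 (adjusted p = 0.0516). The LP call ended without LP sham replicate 1 or LP SNL replicate 2 or 3 (adjusted p between 0.0769 and 0.0838), and the HP difference passed without HP sham replicate 1 or LP sham replicate 1 (adjusted p = 0.0228 and 0.042). It also passed with quantile normalization, pseudocounts of 16 and 32, without the dimmest 25% of genes and with trended and robust variance (adjusted p between 0.0226 and 0.043). The average over both lines, 1.57 ± 0.30 (adjusted p = 0.00373), passed without any 1 array.

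Cxcl10, an interferon-induced ligand of Cxcr3 on T cells, passed with a small difference. It read 238, 214 and 256 in LP SNL against 160.2, 191 and 193 in LP sham, and 192, 226 and 245 in HP SNL against 150.5, 196 and 185 in HP sham. The HP groups overlapped and the LP groups did not. Averaged over the lines it rose by 0.35 ± 0.10 (adjusted p = 0.0273). This call ended without HP sham replicate 1, HP SNL replicate 2 or 3, LP sham replicate 1, or LP SNL replicate 1 or 3 (adjusted p between 0.05735 and 0.0651). It also ended with trended and robust variance (adjusted p = 0.0511), quantile normalization (adjusted p = 0.0654) and median centring (adjusted p = 0.0539), and with the beta-actin ratio as a covariate (adjusted p = 0.2095).

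Fractalkine, the product of Cx3cl1, is a neuronal membrane-bound chemokine that binds Cx3cr1. Cx3cl1 read 311, 430.3 and 395 in LP SNL against 92.3, 293 and 216 in LP sham, and 67.5, 78 and 293 in HP SNL against 70, 265 and 74.1 in HP sham. The LP groups did not overlap, the HP groups did, and neither difference passed (1.05 ± 0.67 in LP, adjusted p = 0.359, and 0.06 ± 0.67 in HP, adjusted p = 0.974). Of the 9 CC ligands that were not called in LP, differences ran between -0.34 for Ccl27 and 0.85 for Ccl22. The 9 not called in HP ran between -0.57 for Ccl3 and 0.58 for Ccl17. Of the other ligands, 10 were not called in LP, from -0.08 for Xcl1 to 1.77 for Cxcl1, a neutrophil attractant, and 11 were not called in HP, from -0.50 for Cxcl1 to 1.45 for Cxcl16. All 12 of these other ligands had an average difference above 0, beside 51.6% of all genes. Cxcl3, another neutrophil attractant, had 4 probe sets that disagreed. The brightest differed by 0.09 ± 1.09 in LP and 0.05 ± 1.09 in HP in a fit over all probe sets, while the dimmest differed by 0.51 ± 0.28 in LP and by 1.23 ± 0.28 in HP (adjusted p = 0.0209 in HP).

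Of the 10 chemokine receptors, 1 rose in HP (10%, beside 13.6% of all genes called) and none passed in LP (0%, beside 14.5%). Cx3cr1, the fractalkine receptor of macrophages and microglia, read 344, 388 and 353 in LP SNL against 336, 296 and 322 in LP sham. In HP it read 299, 324 and 321 after SNL against 180.3, 222 and 265 after sham. The SNL arrays lay above the sham arrays in both lines, and LP sham lay at about the level of HP SNL. The LP difference was 0.18 ± 0.13 (adjusted p = 0.426), and in HP Cx3cr1 rose by 0.51 ± 0.13 (adjusted p = 0.0298). The HP call ended without HP sham replicate 1 or 2 or any 1 of the HP SNL arrays (adjusted p between 0.05405 and 0.0897), with the beta-actin ratio as a covariate (adjusted p = 0.0912), and in a fit of only the arrays compared (adjusted p = 0.103).

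Ccr2, the receptor through which Ccl2 attracts monocytes, was dim. Its signal was 117, 143 and 137 in LP SNL against 104, 83.8 and 85.1 in LP sham, and 72.8, 75.5 and 88.8 in HP SNL against 86.9, 56.6 and 64.7 in HP sham. All LP SNL arrays exceeded all LP sham arrays, while the HP groups overlapped. The average over both lines was 0.37 ± 0.12 (adjusted p = 0.0427), with 0.54 ± 0.17 in LP (adjusted p = 0.0569) and 0.20 ± 0.17 in HP (adjusted p = 0.491). Without HP sham replicate 2 or 3, any 1 HP SNL array, LP sham replicate 2 or 3, or LP SNL replicate 2 or 3, the average no longer passed (adjusted p between 0.0528 and 0.0948). It did not pass with quantile normalization (adjusted p = 0.1025) or with trended and robust variance (adjusted p = 0.193) either. The LP difference passed without HP sham replicate 1 or 2 (adjusted p = 0.02875 and 0.0445) and with a pseudocount of 32 (adjusted p = 0.0473).

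Ccr1, a receptor for several inflammatory CC ligands, lies directly beside Ccr3 on chromosome 8, and Ccr3 is 1 protein-coding gene from Ccr2. It read 26.1, 21 and 24.2 in LP SNL against 31.6, 26.6 and 29.5 in LP sham, and 51.2, 129 and 54.4 in HP SNL against 57.8, 20.9 and 27.6 in HP sham. HP SNL replicate 2 stood apart from the other arrays, and the HP groups overlapped. The differences were -0.29 ± 0.39 in LP (adjusted p = 0.705) and 1.12 ± 0.39 in HP (adjusted p = 0.0946), and the HP difference passed without HP sham replicate 1 (adjusted p = 0.0287). Cxcr4, the receptor of Cxcl12, averaged 429 ± 71.4 in LP SNL and 461 ± 99.3 in LP sham, and 383 ± 99.4 in HP SNL and 412 ± 108 in HP sham. Its differences of -0.09 ± 0.25 and -0.11 ± 0.25 were smaller than their standard errors. Of its other 2 probe sets, in the fit over all probe sets, 1 differed by -0.20 ± 0.13 in LP (adjusted p = 0.369) and -0.40 ± 0.13 in HP (adjusted p = 0.0723), and 1 by -0.17 ± 0.18 in LP and -0.20 ± 0.18 in HP, so all differences of Cxcr4 were below 0 and none passed. Cxcr1, a neutrophil receptor, had the lowest difference among the receptors in LP, -0.30 ± 0.44 (adjusted p = 0.734), and in HP, -1.17 ± 0.44 (adjusted p = 0.116).

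Among the interleukins, Il33, Il24 and Il6 rose. Il33 is a nuclear alarmin of the interleukin-1 family that is released from damaged cells and signals through Il1rl1, also called ST2. Its signal was 2034, 1752 and 2209 in LP SNL against 811, 786 and 881 in LP sham. In HP it was 1743, 1809.7 and 1549 after SNL against 841, 959 and 944 after sham. The spread within each group was small beside the gap. Il33 rose by 1.27 ± 0.11 in LP (2.41-fold, adjusted p = 0.000123) and by 0.89 ± 0.11 in HP (1.86-fold, adjusted p = 0.00087). Both calls held under every other setting and without any 1 array. A second probe set of Il33 passed too, at 1.05 ± 0.15 in LP and 1.06 ± 0.15 in HP in the fit over all probe sets. Its receptor gene Il1rl1 did not pass, with differences of 0.16 ± 0.22 in LP and -0.31 ± 0.22 in HP. A dimmer probe set of Il1rl1 differed by 1.08 ± 0.50 in LP (adjusted p = 0.207) and -0.44 ± 0.50 in HP in the fit over all probe sets.

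Il24 is a cytokine of the interleukin-10 family. It read 378, 264 and 233 in LP SNL against 117, 30.8 and 68 in LP sham, and 270.2, 310.5 and 376 in HP SNL against 130.0, 56.2 and 121 in HP sham. The groups did not overlap in either line, although sham replicates spread widely. Il24 rose by 2.17 ± 0.46 in LP (4.5-fold, adjusted p = 0.0103) and 1.71 ± 0.46 in HP (3.27-fold, adjusted p = 0.034). The HP call ended without any 1 of the 6 HP arrays (adjusted p between 0.05275 and 0.108), and the LP call held without any 1 array but not in a fit of only the arrays compared (adjusted p = 0.0503). Il10, the anti-inflammatory founder of that family, lies 2 protein-coding genes from Il24 on chromosome 13 and did not pass (0.54 ± 0.90 in LP and -0.39 ± 0.90 in HP).

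Il6 is a cytokine of injured neurons and immune cells that acts on cells bearing Il6r and Il6st. It gave 146, 164 and 121 in LP SNL against 21.4, 73.9 and 81.4 in LP sham. The HP SNL arrays gave 155, 102 and 167 against 58.8, 15 and 19.4 on the HP sham arrays. All SNL arrays exceeded all sham arrays of their line, and the SNL arrays of both lines overlapped. The LP difference was 1.47 ± 0.56 (adjusted p = 0.114), and in HP Il6 rose by 2.37 ± 0.56 (5.18-fold, adjusted p = 0.0199). HP sham replicate 2 read below the floor of its array, and with that value raised to the floor the HP difference was 2.30 (4.91-fold). Without HP sham replicate 2 or 3, or HP SNL replicate 1 or 3, the HP call ended (adjusted p between 0.0573 and 0.0731), as it did with the beta-actin ratio as a covariate (adjusted p = 0.139). Averaged over the lines, Il6 rose by 1.92 ± 0.39 (adjusted p = 0.00522). The 19 interleukins not called in LP ran between -0.67 for Il4 and 1.47 for Il6, and the 18 not called in HP between -0.77 for Il13 and 0.66 for Il18.

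**Figure D3:**
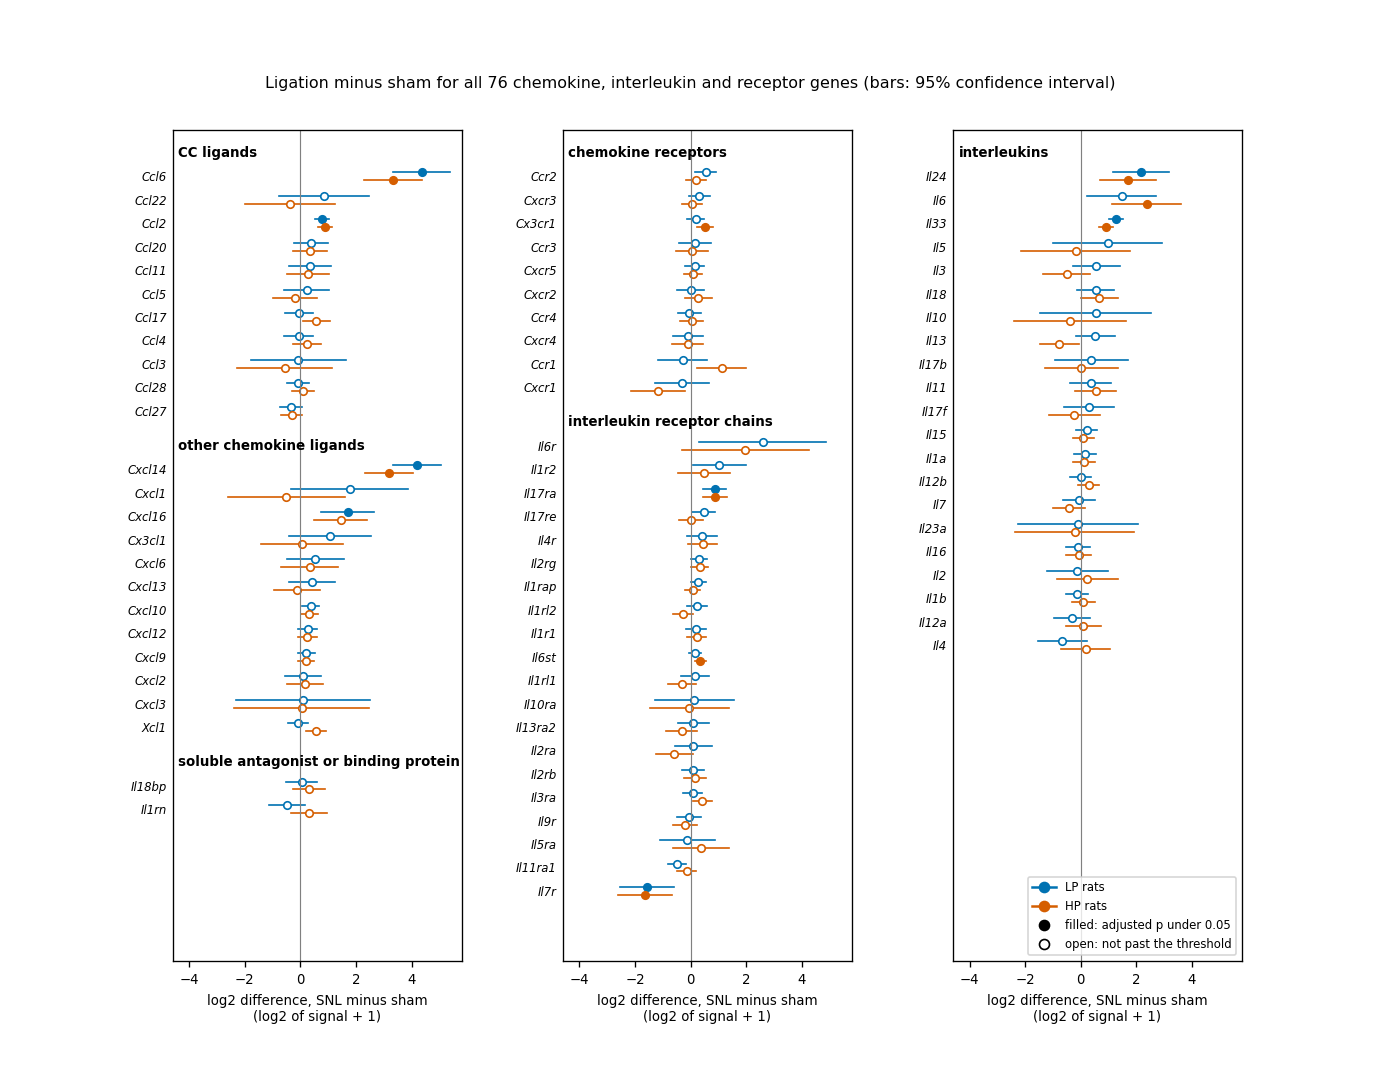
Log2 difference between SNL and sham (x axis, log2 of signal + 1) for all 76 genes, grouped by role and ordered by the LP difference within a role, with LP above HP for each gene (points are fitted differences, bars 95% confidence intervals, filled points past an adjusted p of 0.05). Ccl6 and Cxcl14 lie farthest to the right in both lines, and Il7r is the 1 filled point left of 0.

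Receptor chains of the interleukins held both risers and the 1 gene that fell. Il17ra, the chain shared by the receptors of several interleukin-17 ligands, measured 491, 390.1 and 604 in LP SNL against 272, 251 and 281 in LP sham. In HP it measured 478, 419.5 and 442 after SNL against 252, 302 and 184 after sham. SNL arrays exceeded sham arrays in both lines with no overlap. Il17ra rose by 0.86 ± 0.19 in LP (adjusted p = 0.0142) and 0.88 ± 0.19 in HP (adjusted p = 0.0143). The LP call ended without LP SNL replicate 3 (adjusted p = 0.0553), and the HP call ended with the beta-actin ratio as a covariate (adjusted p = 0.0828).

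Il7r, the alpha chain of the interleukin-7 receptor of lymphocytes, went the other way. Its signal was 42.8, 86 and 129 in LP SNL against 195, 237 and 275 in LP sham, and 122, 63 and 37.9 in HP SNL against 213, 217 and 193 in HP sham. All SNL arrays lay below all sham arrays of the same line. Il7r fell, with a log2 difference of -1.57 ± 0.44 in LP (adjusted p = 0.0373) and -1.63 ± 0.44 in HP (adjusted p = 0.0346). Without HP sham replicate 1, 2 or 3, HP SNL replicate 2, LP sham replicate 1, 2 or 3, or LP SNL replicate 1 or 2 the LP call ended (adjusted p between 0.05295 and 0.1195). Without HP sham replicate 1, 2 or 3, HP SNL replicate 2 or 3, or LP sham replicate 2 the HP call ended (adjusted p between 0.0503 and 0.112). In a fit of only the arrays compared, neither passed (adjusted p = 0.0706 in LP and 0.0615 in HP). The average, -1.60 ± 0.31 (adjusted p = 0.00372), held without any 1 array. Il7, its ligand, did not pass (-0.07 ± 0.26 in LP and -0.42 ± 0.26 in HP). A dimmer probe set of Il7 differed by -1.03 ± 0.37 in LP (adjusted p = 0.103) and -0.44 ± 0.37 in HP in the fit over all probe sets. Il2rg, the common gamma chain that pairs with Il7r and with other interleukin receptors, was called in the direction opposite to Il7r. Il2rg read 379.6, 368 and 435 in LP SNL against 327, 348 and 286 in LP sham, and 334, 432 and 429.7 in HP SNL against 285, 335 and 329.8 in HP sham. It rose by 0.31 ± 0.09 in the average over the lines (adjusted p = 0.0349), and that call ended without HP sham replicate 1 or 3, HP SNL replicate 2 or 3, LP sham replicate 1 or 3, or LP SNL replicate 1 or 3 (adjusted p between 0.0531 and 0.0839), and with quantile normalization or median centring (adjusted p = 0.0586 and 0.0576).

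Both chains that receive Il6 had higher means after ligation. Il6st, or gp130, the signalling chain shared with receptors of LIF and CNTF, was the first of these. It read 1764, 1703 and 1604 in LP SNL against 1389, 1506 and 1639.8 in LP sham, and 1544, 1695 and 1598 in HP SNL against 1266, 1319 and 1208 in HP sham. The HP groups were apart and the LP groups overlapped. The LP difference was 0.16 ± 0.09 (adjusted p = 0.294), and in HP Il6st rose by 0.35 ± 0.09 (adjusted p = 0.0309). That call ended without any 1 of the 6 HP arrays (adjusted p between 0.0511 and 0.107), with the mean of its 3 probe sets (0.24, adjusted p = 0.461), with median centring (adjusted p = 0.0647) and in a fit of only the arrays compared (adjusted p = 0.0705). The other 2 probe sets of Il6st did not pass in either line in the fit over all probe sets. They differed by 0.53 ± 0.18 (adjusted p = 0.0806) and 0.61 ± 0.40 in LP, and by 0.26 ± 0.18 and 0.11 ± 0.40 in HP. Both thus had the larger difference in LP, unlike the probe set used.

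Il6r, the ligand-binding chain for Il6, read below the floor of the array on 2 of the 3 LP sham arrays and 1 of the 3 HP sham arrays. It read 83.9, 77.4 and 93.8 in LP SNL against 3.3, 10.1 and 59.6 in LP sham, and 99.1, 44.5 and 102 in HP SNL against 22.8, 65.8 and 3.9 in HP sham. LP groups did not overlap and HP groups did. It rose by 2.28 ± 0.72 in the average (adjusted p = 0.0428), with 2.59 ± 1.02 in LP (adjusted p = 0.129) and 1.97 ± 1.02 in HP (adjusted p = 0.254). With the values below the floor raised to it, the differences were 1.84 in LP and 1.37 in HP. The average still passed without HP sham replicate 2 or LP sham replicate 3, and without any other 1 array its adjusted p was between 0.0521 and 0.0872. With the beta-actin ratio as a covariate the average was 0.93 (adjusted p = 0.352). The LP difference passed without LP sham replicate 3 (adjusted p = 0.0316).

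Of the other receptor chains, the 18 not called in LP ran between -0.49 for Il11ra1, the interleukin-11 receptor, and 2.59 for Il6r. The 17 not called in HP ran between -0.58 for Il2ra and 1.97 for Il6r. Il11ra1 read 327, 291 and 278 in LP SNL against 478, 416 and 371 in LP sham, and 427, 519.6 and 403 in HP SNL against 423, 490.0 and 583 in HP sham. Its LP groups did not overlap, its LP difference was -0.49 ± 0.15 (adjusted p = 0.0568), and that difference passed without HP sham replicate 3 or LP sham replicate 3 (adjusted p = 0.0476 and 0.04925). It also passed with trended and robust variance, with quantile normalization, when centred on the median, and without the dimmest 25% of genes (adjusted p between 0.032 and 0.0385). The interleukin-1 receptor antagonist Il1rn was dim and differed by -0.49 ± 0.29 in LP and 0.32 ± 0.29 in HP. Il18bp, which binds and blocks interleukin-18, averaged 263 ± 27.7 in LP SNL and 266 ± 101 in LP sham, and 287 ± 10.7 in HP SNL and 239.7 ± 75.1 in HP sham. Neither soluble protein gene passed in either line.

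Groups without overlap give a second view that does not depend on the fitted spread. In LP all 3 SNL arrays lay above all 3 sham arrays for 19 of the 76 genes and below for 3, beside 16.5% and 14.7% of all genes. In HP this held for 14 above and 2 below, beside 17.2% and 17.1% of all genes. Genes lying wholly below sham were thus fewer than wholly above in both lines, whereas over all genes the 2 directions were nearly even. Genes in the brighter 38 supplied 7 of the 7 rises in LP and 8 of the 9 in HP, and Il7r, the gene that fell, was in the dimmer 38.

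The next question was whether the lines differed. After SNL no chemokine or interleukin gene passed between LP and HP, beside 0.173% of all genes (0.0864% higher and 0.0864% lower), and at an unadjusted p under 0.05 there were 10 (13.2%, beside 10.7% of all genes). The smallest p-values belonged to Ccr2, Ccr1 and Il11ra1. Ccr2 was higher on all LP SNL arrays than on all HP SNL arrays, by 0.74 ± 0.17 (adjusted p = 0.156), and Ccr1 was lower on all LP SNL arrays, at -1.55 ± 0.39 (adjusted p = 0.203). Il11ra1 was lower on all LP SNL arrays as well, at -0.59 ± 0.15 (adjusted p = 0.206). None of these passed the threshold. LP SNL arrays lay wholly above HP SNL arrays for 6 of the 76 genes and wholly below for 3, beside 9.08% and 8.36% of all genes.

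After sham surgery none passed either, beside 0.00961% of all genes, and 7 had an unadjusted p under 0.05 (9.21%, beside 9.77%). Xcl1, a chemokine of T and NK cells, lay near the floor, at 21.4, 21.3 and 24.9 in LP sham against 14.2, 10.7 and 15.3 in HP sham, without overlap (0.72 ± 0.17, adjusted p = 0.259). Cx3cr1 was 0.53 ± 0.13 higher in LP sham than in HP sham (adjusted p = 0.303), again without overlap. Il17re, a receptor chain for interleukin-17C, differed by -0.56 ± 0.19 (adjusted p = 0.411), with overlapping groups. With the mean of its probe sets that difference was 0.0002. LP sham arrays lay wholly above HP sham arrays for 5 of the 76 genes and wholly below for 1, beside 8.19% and 7.41% of all genes.

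The interaction asks whether ligation moved a gene differently in LP than in HP. No chemokine or interleukin gene passed, nor did any of the 10411 genes (0%), and 4 of the 76 had an unadjusted p under 0.05 (5.26%, beside 4.7%). The interleukin gene Il13, whose product drives type 2 immunity, read 151, 328 and 258 in LP SNL against 134, 178 and 179.8 in LP sham, and 96.2, 171 and 91.3 in HP SNL against 244, 163 and 188 in HP sham. SNL and sham arrays overlapped in both lines, and the difference of the ligation effects was 1.29 ± 0.45. It was -0.65 ± 0.24 for Xcl1, -1.41 ± 0.55 for Ccr1 and 0.38 ± 0.16 for Il33, and for all 4 the adjusted p was 0.989. For the genes called in 1 line alone, the 95% interval of that difference ran from -2.66 to 0.86 for Il6, -1.10 to 1.61 for Cxcl16, -0.75 to 0.09 for Cx3cr1 and -0.47 to 0.10 for Il6st. For the genes with the largest rises it ran from -0.43 to 2.49 for Ccl6 and from -0.23 to 2.22 for Cxcl14. Sham signals of both were lower in LP than in HP by the fit, at -1.22 ± 0.46 for Ccl6 and -0.90 ± 0.39 for Cxcl14, with adjusted p = 0.44 and 0.496, and with overlapping groups.

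**Figure D4:**
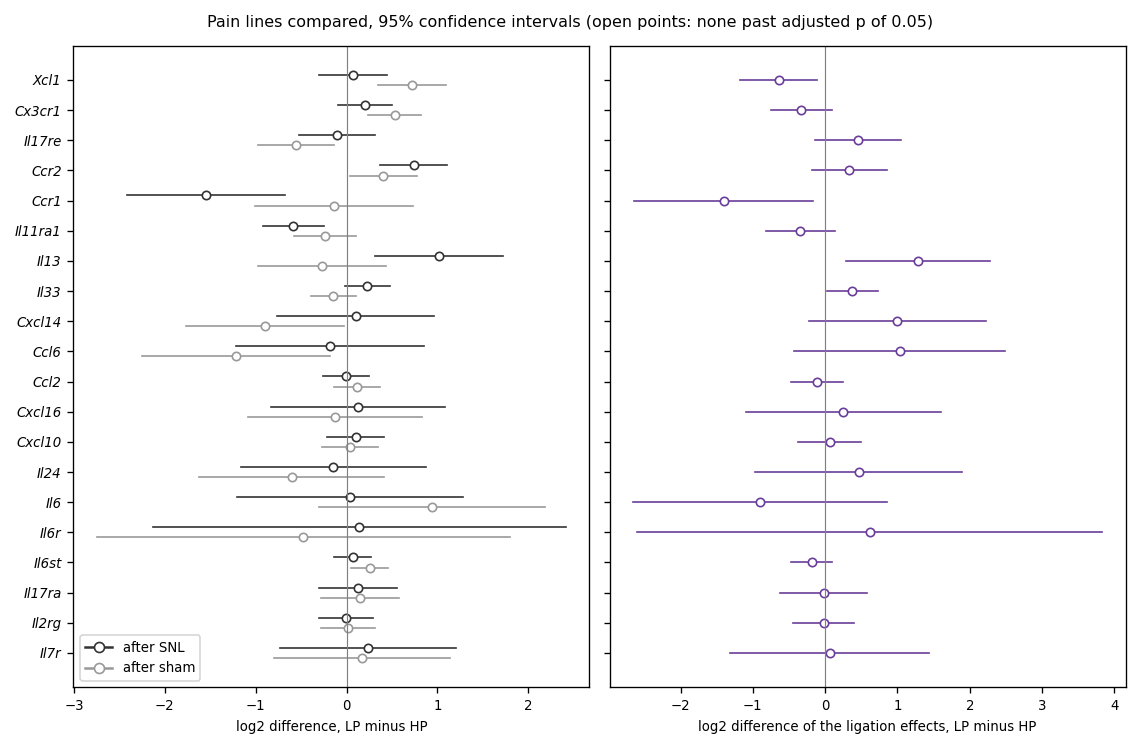
LP minus HP on the log2 scale for 20 of the 76 genes: left, the difference after SNL (dark) and after sham (light), right, the difference of the ligation effects (points are fitted values, bars 95% confidence intervals). All points are open because none passed an adjusted p of 0.05, and the intervals of Il6r, Il6 and Ccl6 are among the widest.

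Genes around these families were described from a list of other ligands, receptors and signalling genes. Of 36 listed ligands and receptors of neighbouring families 26 were measured, and in LP 9 rose and 1 fell (38.5%), while in HP 6 rose and 1 fell (26.9%), beside 14.5% and 13.6% of all genes called. Their median log2 difference was 0.41 in LP and 0.31 in HP, with 20 of the 26 differences above 0 in each line. Mif was the gene that fell, with a log2 difference of -0.37 ± 0.09 in LP (adjusted p = 0.0178) and -0.36 ± 0.09 in HP (adjusted p = 0.0218). Tgfb1, the transforming growth factor, rose by 3.19 ± 0.41 in LP and 2.58 ± 0.41 in HP. Its sham means were low, at 23.1 ± 10.3 in LP and 35.8 ± 14.2 in HP, beside floors of 12.4 to 20.8, so the sizes are not exact. Ackr3, a scavenger receptor of Cxcl12, rose by 1.20 ± 0.20 and 1.15 ± 0.20, while Cxcl12 itself differed by 0.26 ± 0.15 and 0.25 ± 0.15 and did not pass. Its dimmer probe sets differed by -0.03 ± 0.11 and -0.69 ± 0.99 in LP and did not pass there. In HP the same probe sets differed by 0.12 ± 0.11 and 0.41 ± 0.99, again without passing. The tumour necrosis factor receptor gene Tnfrsf1a rose by 1.08 ± 0.14 in LP and 1.04 ± 0.14 in HP. Csf1r, which sustains macrophages and is also one of the macrophage markers above, rose by 0.92 ± 0.12 and 1.05 ± 0.12. Tgfbr1 and the interferon gamma receptor gene Ifngr2 rose in both lines too, and Ifngr1 and Rarres2, the gene of the attractant chemerin, rose in LP.

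Of 42 listed signalling genes 30 were measured, of which 4 rose in LP (13.3%) and 2 in HP (6.67%), and none fell. Of all genes 14.5% were called in LP, 7.66% higher, and 13.6% in HP, 7.02% higher. The median differences of the 30 were 0.25 in LP and 0.26 in HP. Jak2, a kinase of many interleukin receptors, rose by 0.91 ± 0.16 in LP (adjusted p = 0.00416) and 0.75 ± 0.16 in HP (adjusted p = 0.0123). Socs3, the feedback inhibitor of Il6st signalling, rose by 1.32 ± 0.23 in LP (adjusted p = 0.00426), and its HP difference was 0.65 ± 0.23 (adjusted p = 0.0977). Stat3, which Il6st activates, differed by 0.27 ± 0.09 in LP (adjusted p = 0.0641) and rose by 0.41 ± 0.09 in HP (adjusted p = 0.013). Irak1, a kinase of interleukin-1 receptors, rose by 0.48 ± 0.10 in LP (adjusted p = 0.00912), with 0.30 ± 0.10 in HP (adjusted p = 0.0697).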

How the data were processed

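Ganglion RNA was measured on 12 Affymetrix arrays, 3 for each of 4 groups, and the sample titles gave groups and replicate numbers. The authors deposited 1 linear intensity per array for each of 15923 probe sets. According to the submitters' processing notes the tool was RMA, of no stated version. Leaving out 2% of values at either end, each array averages 500.1, as global scaling gives. RMA alone therefore does not describe these values, and which steps were run is not settled. Other steps: not given in the sources used here. Among the 191076 values, 109 fell short of 1 and 3 were 0. For this reason log2(intensity + 1) was taken, with no other normalization. The added 1 shrinks differences of dim genes, but values below the floor can enlarge them. For Ccl6 and Il6r in both lines and Il6 in HP, the fitted differences exceeded those with such values raised to the floor.

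The platform annotation named the probe sets: 12783 had 1 symbol, 312 had several, 2771 had none and 57 were controls. A RefSeq table (GRCr8) updated the symbols, 12748 through the gene identifier and 2 through an accession, and 33 stayed as the platform gives them. The family had 92 probe sets for its 76 genes. A further 2 probe sets name a family gene together with another gene and were not used. Promoters were matched to RefSeq (GRCr8) by gene identifier, which succeeded for 13 of the 15 called genes, all but Ccl2 and Il17ra.

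One limma model of the 4 group means was fitted to all 12 arrays (lmFit, contrasts.fit and eBayes in R 4.3.3; the packages were limma 3.58.1 and statmod 1.5.0), which left 8 residual and 2.05 prior degrees of freedom. It gave 6 contrasts: ligation against sham in LP, in HP and as their mean, LP against HP in SNL and in sham arrays, and the interaction. The ligation contrast of a line shares its arrays with the average, the line contrasts and the interaction. Tests were two-sided, p-values were adjusted over all 10411 genes by the Benjamini-Hochberg method, and the threshold was 0.05. The fit was tested on simulated data, and the outcome of that test is not reported here. The number of arrays limits the precision.

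The family, the marker lists, the pathway list and the tests were chosen with earlier results of these data known. Genes named were all those past the threshold in any contrast, the 3 smallest p-values of a contrast with fewer than 3 calls, the brightest gene of each role and known partners of called genes. Neighbouring genes, Cxcr1, Cxcl3, Cxcl12, Il7, Il1rl1, Il1rn and the marker Fabp7 were named after their values were seen. Same-numbered arrays did not deviate together: over 18 pairs the correlation of deviations from group means lay between -0.157 and 0.0984, so the numbers were not taken as pairs.

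Alternatives to these settings were quantile normalization, median centring, pseudocounts of 16 and 32, a filter on the dimmest 25% of genes, the replicate number as a block, trended and robust variance, a fit of only the arrays compared, a gene's value as the mean of its probe sets, each probe set tested alone, the beta-actin ratio (3' over 5', log2) as a covariate, and leaving out each array in turn.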

Additional observations from a re-analysis of the deposited data

How the results depend on the processing

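Of 1811 values for single genes under the alternatives, 1648 kept their direction and their side of the threshold, 108 lost a call, 21 gained one and 34 changed sign, none of these 34 in a result that had passed. In LP the count of genes that rose, 7, was 5 to 8 when each array was left out in turn, and within 1.5 times under all other settings. The count that fell in LP, 1, was 0 with the replicate block, with the beta-actin ratio as a covariate and in a fit of only the arrays compared, 2 with quantile normalization, median centring and trended variance, and 0 to 1 when leaving out single arrays. In HP the 9 that rose became 5 with the beta-actin ratio and 5 to 10 when leaving out single arrays. The 1 that fell in HP was 0 with the replicate block, the beta-actin ratio, only the arrays compared and without the dimmest 25% of genes, and 0 to 1 when leaving out single arrays. The average over the lines had 14 genes that rose, 9 with the beta-actin ratio and 10 to 13 when leaving out single arrays, and 1 that fell, 2 with quantile normalization, median centring and trended variance and 1 to 3 when leaving out single arrays. No chemokine or interleukin gene passed between the lines or in the interaction under any of these settings (0 to 0).

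The replicate block ended the calls of Il7r in LP and HP (adjusted p = 0.078 and 0.0719), Cxcl16 in LP (0.0537), Il6st in HP (0.0632), and Ccr2 and Il6r in the average (0.0702 and 0.0776), and it changed no other call of the named genes. Same-numbered arrays are not known to share anything but a number, and 1 of 12 correlated best with an array of its own number. The beta-actin ratio ended further calls of Cxcl16 in LP (0.0515), Il7r in LP and HP (0.0565 and 0.0986), Il6st in HP and the average (0.171 and 0.117, with 0.092 in the average for the mean of its probe sets), and Cx3cr1, Il6 and Il2rg in the average (0.0694, 0.0581 and 0.0999). With it Ccr2 passed in LP (adjusted p = 0.0371). Xcl1 in HP passed without LP SNL replicate 1 or 3 (adjusted p = 0.0475 and 0.0295). Without the dimmest 25% of genes Ccr2, Ccr1, Il6, Il6r, Il7r and Xcl1 were not tested. The cause was not tested in these cases.

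Signs turned in these results, none of which had passed. In HP, Cx3cl1 was -1.07 with the beta-actin ratio and -0.61 to 0.68 when leaving out single arrays, Il11ra1 was 0.0295 with the beta-actin ratio, Cxcr4 was -0.31 to 0.0935 without single arrays, and Il17re was -0.0283 with quantile normalization, -0.0141 with median centring, -0.0332 with the beta-actin ratio and -0.19 to 0.22 without single arrays. In LP, leaving out single arrays gave -0.28 to 0.05 for Cxcr4, -0.12 to 0.34 for Il18bp and -0.21 to 0.0854 for Xcl1. Between the lines after sham, Il17re was 0.0002 with the mean of its probe sets, against -0.56 from the 1 probe set used, so that difference rests on the choice of probe set. In the interaction, Il17ra was 0.0163 with the beta-actin ratio and -0.19 to 0.17 without single arrays, Il6st was 0.19 with the mean of its probe sets, and Il7r was -0.17 with quantile normalization and -0.33 to 0.50 without single arrays. There Ccl2 was -0.19 to 0.0232, Cxcl16 was -0.17 to 0.73 and Il24, at 0.46 with all arrays, was -0.0406 to 0.90 without single arrays. Dim signals and 3 arrays a group limit what could be called.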
